A study of Mus musculus with 8 samples.

Results

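The locus described here is Sox9 with the gene desert upstream of it, in mouse cells that expressed wild-type or K36M histone H3.3. It was defined as the window chr11:110500000-113500000 of the mouse build mm9, with Sox9 at about 112.64 Mb. The window was chosen by the measured H3K36me2 values of the series, because its desert holds some of the strongest H3K36me2 domains, so the H3K36me2 levels below are a description. Of the 7689 peaks in the 3 deposited tables, 15 overlapped the window. They were 10 of the 1691 H3K36me2 peaks, 4 of the 4999 H3K36me3 peaks and 1 of the 999 H3K27me3 peaks. All 15 lay wholly inside it.

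The cells were C3H10T1/2, a line of mesenchymal progenitors from C3H mouse embryos. They carried stably expressed H3.3 with a FLAG-HA tag, either wild type (WT) or the K36M mutant, in which methionine stands in place of lysine 36, and were at passages 10 to 15. The labels give no number of clones and no removal of the cells' own H3 genes. Each mark was measured by immunoprecipitation of nucleosomes cut with micrococcal nuclease, after chromatin of Drosophila S2 cells had been added at 5% of the mouse chromatin. There was 1 library for each of the 3 marks in each genotype, so no difference below has a replicate check and no test between genotypes was possible. The 2 input libraries were not analysed here. Counted in whole reads, the libraries held between 915902 and 11294217 reads inside listed peaks.

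SOX9 is a transcription factor of the SOX family that commits mesenchymal progenitors to cartilage. With SOX5 and SOX6 it switches on cartilage matrix genes such as Col2a1 and Acan. It is also known for its large upstream desert, which holds distant enhancers. H3K36me2 is written mainly by the NSD enzymes over broad genic and intergenic stretches. H3K36me3 is written by SETD2 along transcribed gene bodies, and H3K27me3 by Polycomb repressive complex 2 over repressed chromatin. H3.3 K36M is the histone mutation of chondroblastoma, a tumour of cartilage-forming cells, and it inhibits the H3K36 methyltransferases.

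In the RefSeq gene order of GRCm38.p6, the protein-coding genes before Sox9 are Map2k6, Kcnj16, Kcnj2 and the predicted gene Gm11677. Map2k6 encodes a kinase of the p38 pathway, and Kcnj16 and Kcnj2 encode inward-rectifier potassium channels. Between Kcnj2 and Sox9 the table lists 5 long non-coding RNA genes, 1 protein-coding gene (Gm11677) and 1 pseudogene. BC006965 is the non-coding gene next to Sox9 on this side. After Sox9 come 9 long non-coding RNA genes, among them 2610035D17Rik, and then Slc39a11, which encodes a zinc transporter. This table belongs to a later build than the peaks, so it gives names and order only, and no peak was assigned to any of these genes. The position of Sox9 itself is known here to 0.01 Mb, so distances from it are approximate, and a peak placed at Sox9 is placed only to that precision.

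The deposited unit is the spike-in normalized read. It was taken here as the reads of a peak multiplied by 1 factor per library. That factor was inferred from the common step of each column's values. Each fold difference is the WT value divided by the K36M value. The range after it is the exact Clopper-Pearson 95% interval from the reads of both libraries, which covers counting error only. If the factors themselves were rounded, all ratios of a mark could shift together. That shift is at most 1.43% for H3K36me2, 3.60% for H3K36me3 and 4.84% for H3K27me3, and is not in the range.

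On the desert side of Sox9, listed H3K36me2 peaks covered about 55.1% of the 2140 kb of the window, and most of that length lay in a single block that was about 5 times lower in K36M cells. From about 1248 kb to 100 kb before Sox9, 4 neighbouring H3K36me2 peaks formed a block of 1.15 Mb, chr11:111391600-112539999. No H3K36me2 peak was listed in the 892 kb of the window before the block. Within the block, whose edges are those of its outer peaks, the peaks covered 98.3% of the span and were separated by gaps of 6.6, 7.2 and 5.2 kb. The block summed to 56452 normalized reads for WT and 11170 for K36M, 5.05-fold lower (4.97 to 5.13). Measured per length, that was 50.0 normalized reads per kb in WT and 9.89 in K36M. No H3K27me3 peak and a single 1.2 kb H3K36me3 peak were listed inside the block.

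**Figure D1:**
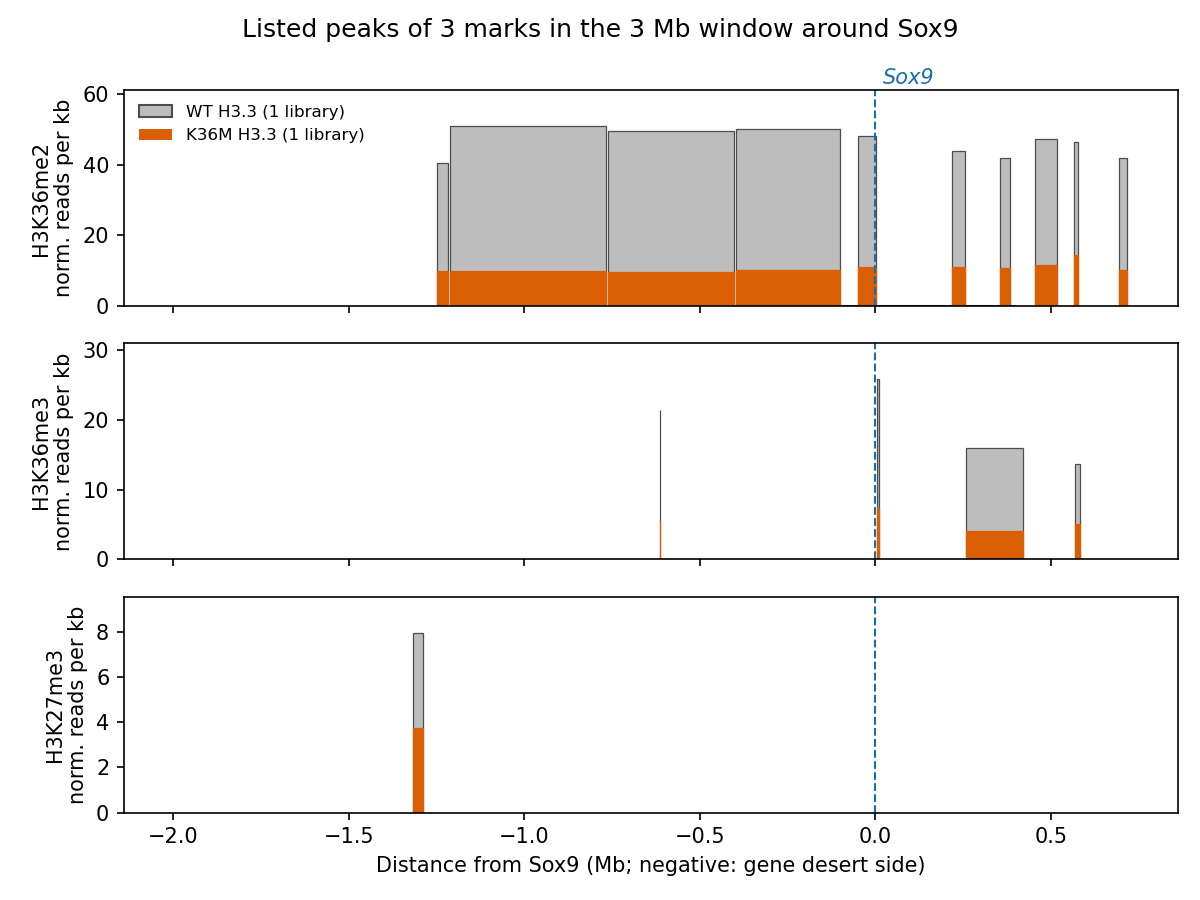
Peaks of the 3 marks by distance from Sox9 (x axis, Mb). The y axis of each panel gives normalized reads per kb on its own scale. Grey bars are the WT library, orange bars the K36M library, bar width is peak length and the dashed line marks Sox9. The H3K36me2 block spans 1148 kb of the desert side at 50.0 reads per kb in WT and 9.89 in K36M, and the only H3K27me3 peak lies beyond its far edge.

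Among clusters of the listed H3K36me2 peaks, the block was the largest, without a comparison with the input libraries. When peaks separated by at most 50 kb were joined, the genome held 1242 clusters, and the block ranked first by span, by covered length, by WT signal and by K36M signal. The cluster with the next highest WT signal, on chromosome 15 from 60934800 to 61660799, had 31228 normalized reads, so the block held 1.81 times as much. The next longest, also on chromosome 15, spanned 764.6 kb. In loss the block was not extreme, at 5.05-fold. The clusters of ranks 2 to 5 by WT signal were 5.85, 4.63, 5.81 and 5.27-fold lower in K36M. Those of ranks 6 to 8 were 4.59, 4.05 and 3.85-fold lower. With gaps of at most 20 kb the block was the same, and with gaps of at most 100 kb it also took in the next peak toward Sox9 and spanned 1249 kb. It ranked first by the same 4 measures under both rules. These ranks use the values that chose the locus.

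**Figure D2:**
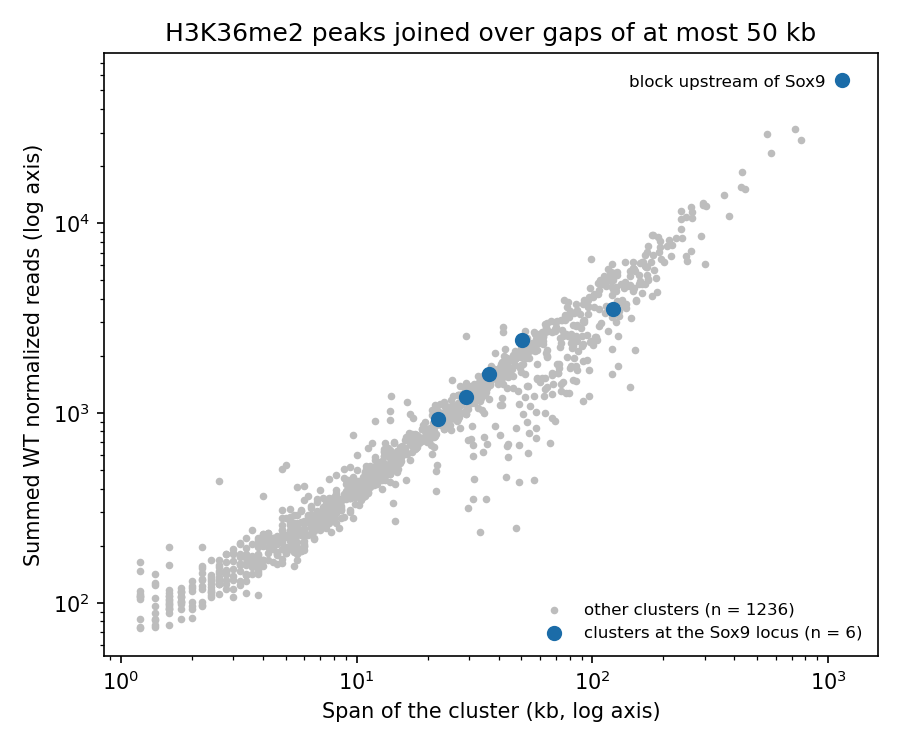
Span (x axis, kb, log axis) against summed WT H3K36me2 signal (y axis, normalized reads, log axis) of the 1242 clusters of peaks joined over gaps of at most 50 kb. Each point is a cluster, and blue points are the 6 clusters of the Sox9 window. The block upstream of Sox9 lies at the top right, with 56452 normalized reads over 1148 kb.

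3 domains made up nearly the whole block, and they were 3 of the 7 H3K36me2 peaks of 200 kb or more in the table. The longest peak of the whole table was chr11:111429600-111871999, 442.4 kb long. WT cells had 22543 normalized reads there and K36M cells 4377, a 5.15-fold difference (5.02 to 5.28). The next, chr11:111879200-112236599, was 357.4 kb long and had 17710 and 3438 normalized reads, also 5.15-fold lower (5.01 to 5.30). The third, chr11:112241800-112539999, was 298.2 kb long. Its values were 14930 in WT and 3043 in K36M, 4.91-fold lower (4.76 to 5.06). The counting intervals of the 3 domains overlapped one another. They held ranks 2, 3 and 4 by WT signal, after a 362.6 kb domain on chromosome 10 that was 4.60-fold lower.

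The 3 domains were alike in density as well. In WT they had 51.0, 49.6 and 50.1 normalized reads per kb, above 81.5% to 84.8% of all H3K36me2 peaks. In K36M the densities were 9.89, 9.62 and 10.2 per kb, above only 38.1% to 48.8% of the peaks. The median of all H3K36me2 peaks outside the window was 42.6 per kb in WT and 10.3 in K36M. In WT the domains therefore stood above the typical peak, while in K36M they were just below it. The WT value is the denominator of the ratio, so the ratios of domains picked by their signal are not independent of that choice. How far the choice lowers these ratios was not tested. The 865 other peaks in the WT density range of the window's peaks had a median log2 ratio of −2.09, and all 1681 other peaks −2.07.

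**Figure D3:**
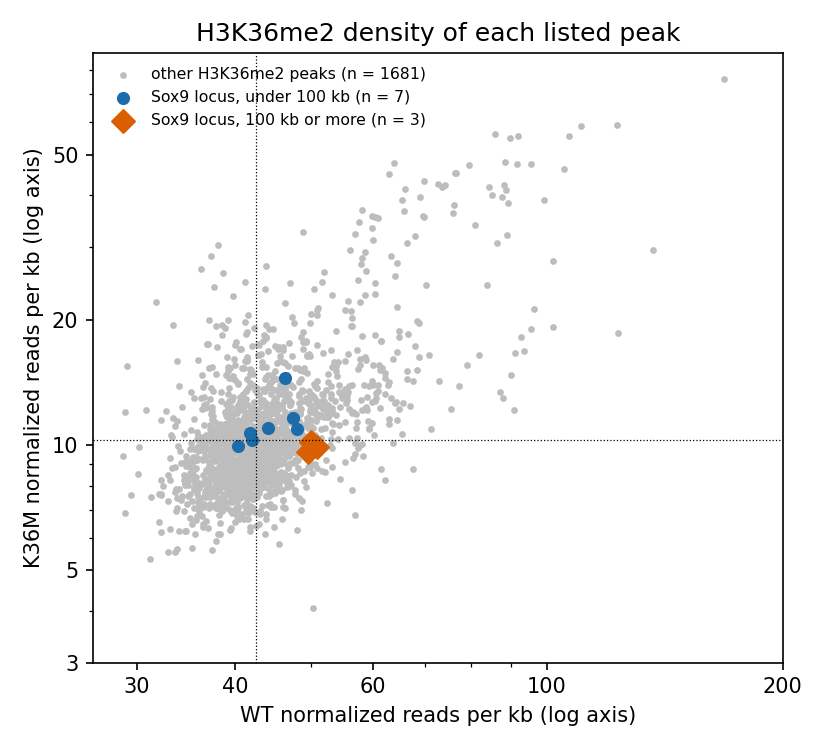
H3K36me2 density of every listed peak in WT (x axis) and K36M (y axis), in normalized reads per kb on log axes. Grey points are peaks elsewhere, blue points the 7 shorter peaks of the Sox9 window and orange diamonds its 3 domains of 100 kb or more. Dotted lines are the medians of the peaks elsewhere, 42.6 and 10.3. The 3 diamonds lie right of the WT median and below the K36M median.

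The far end of the block was a smaller peak with a smaller loss. This 31.4 kb peak, chr11:111391600-111422999, went from 1269 normalized reads (WT) to 313 (K36M), 4.05-fold lower (3.67 to 4.48). Its WT density was 40.4 per kb, below the median of the peaks elsewhere. The near end of the desert held another separate peak, chr11:112590600-112640999, 50.6 kb beyond the block. It reached the position given for Sox9, to the precision of 0.01 Mb. This 50.4 kb peak had 2421 and 551 normalized reads, 4.39-fold lower (4.08 to 4.73), and 48.0 per kb in WT.

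On the other side of Sox9, H3K36me2 came in 5 separate peaks of 13.6 to 61.4 kb, with gaps of 47.8 to 114.8 kb between them. No H3K36me2 peak was listed in the 217.4 kb between the peak at Sox9 and the first of them. The largest, chr11:113095200-113156599, had 2911 normalized reads for WT and 713 for K36M, 4.08-fold lower (3.82 to 4.36). The one nearest Sox9, chr11:112858400-112894799, had 1603 and 400 and was 4.00-fold lower (3.67 to 4.37). The next one out, chr11:112995200-113024399, had 1220 and 312, 3.91-fold lower (3.54 to 4.33). The outermost, chr11:113332800-113354999, had 933 and 229 and was 4.08-fold lower (3.63 to 4.58). Those 4 intervals overlapped one another.

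The smallest loss of H3K36me2 in the window was in its shortest peak. This was chr11:113204400-113217999, 13.6 kb long, with 631 normalized reads for WT and 198 for K36M. It was 3.19-fold lower (2.80 to 3.64), and 84.2% of all H3K36me2 peaks had a lower ratio. In K36M it kept 14.5 normalized reads per kb, the highest K36M density of the 10 peaks. An H3K36me3 peak covered 80.9% of its length.

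Summed by side, the 5 H3K36me2 peaks of the desert side were 5.02-fold lower (4.95 to 5.10) and the 5 peaks beyond Sox9 were 3.94-fold lower (3.78 to 4.10). All 3 large domains lay on the desert side, where the remaining peaks were 4.05-fold and 4.39-fold lower. Together the 3 domains were 5.08-fold lower (5.00 to 5.17), and the other 7 peaks, from both sides, 4.04-fold lower (3.91 to 4.18). By peak, the 3 domains ranged from 4.91-fold to 5.15-fold and the 7 others from 3.19-fold to 4.39-fold, and no counting interval of the first set overlapped one of the second. Length, density and side of Sox9 all differ between those sets, and their separate parts were not tested.

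Set against the mark's median, the window as a whole was ordinary. The median log2 ratio of its 10 H3K36me2 peaks was −2.03, a 4.08-fold difference, and that of the 1681 other peaks was −2.07, or 4.19-fold, with quartiles of −2.26 and −1.84. Only 4 of the 10 were below the median of the others, and these were the 3 large domains and the peak that reaches Sox9. In all, 8 of the 10 were at least 4-fold lower in K36M, beside 59.0% of all H3K36me2 peaks. Of these 8, the peaks at 4.00, 4.05, 4.08 and 4.08-fold lay at the threshold, with counting intervals that reached below 4-fold. The ratio of summed signal, in which long domains weigh more, was 4.87-fold (4.80 to 4.95) in the window and 3.99-fold in all other peaks.

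Against the rest of chromosome 11 the window did stand lower. The 126 other H3K36me2 peaks of this chromosome had a median log2 ratio of −1.84, so the median of the window was 0.19 below it. Their summed signal was 3.32-fold lower in K36M. The window held 31.7% of the listed H3K36me2 signal of chromosome 11 in WT and 24.0% in K36M. Of the listed signal of the whole genome it held 3.46% in WT and 2.85% in K36M.

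Among the long H3K36me2 peaks of the genome, the ratios of the 3 domains lay close to the lower quartile. The 57 other H3K36me2 peaks of 100 kb or more had a median log2 ratio of −2.12, a 4.35-fold difference, with a lower quartile of −2.35 and a range from 2.41-fold to 6.47-fold. Their median length was 120.6 kb, so most were far shorter than the 3 domains. Summed, they were 4.26-fold lower, against 5.08-fold for the 3 domains. Of these, 2 had log2 ratios of −2.36 and −2.37, just under that quartile, and the one nearest Sox9 had −2.29. The 38 of the 57 peaks without H3K36me3 had a median of −2.22 and a lower quartile of −2.41. For the 52 on other chromosomes these values were −2.17 and −2.40. All 3 domains lay above both of these lower quartiles. The 4 other peaks of 200 kb or more were 4.60-fold lower on chromosome 10 and 4.27-fold, 3.58-fold and 4.93-fold lower on chromosome 15. Only the last of these 4 reached the smallest of the 3 values in the desert, 4.91-fold. Under 200 kb, some long peaks lost more than any of the 3 domains, up to the 6.47-fold given above. WT densities of the 4 peaks of 200 kb or more were 66.3 per kb on chromosome 10 and 48.4 to 49.6 per kb on chromosome 15. The desert's domains, at 49.6 to 51.0 per kb in WT, were thus close in WT density to those on chromosome 15, and they were longer. In K36M the chromosome 15 peaks had 11.6, 13.6 and 9.82 per kb, in the order given above, and the desert's domains 9.62 to 10.2.

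**Figure D4:**
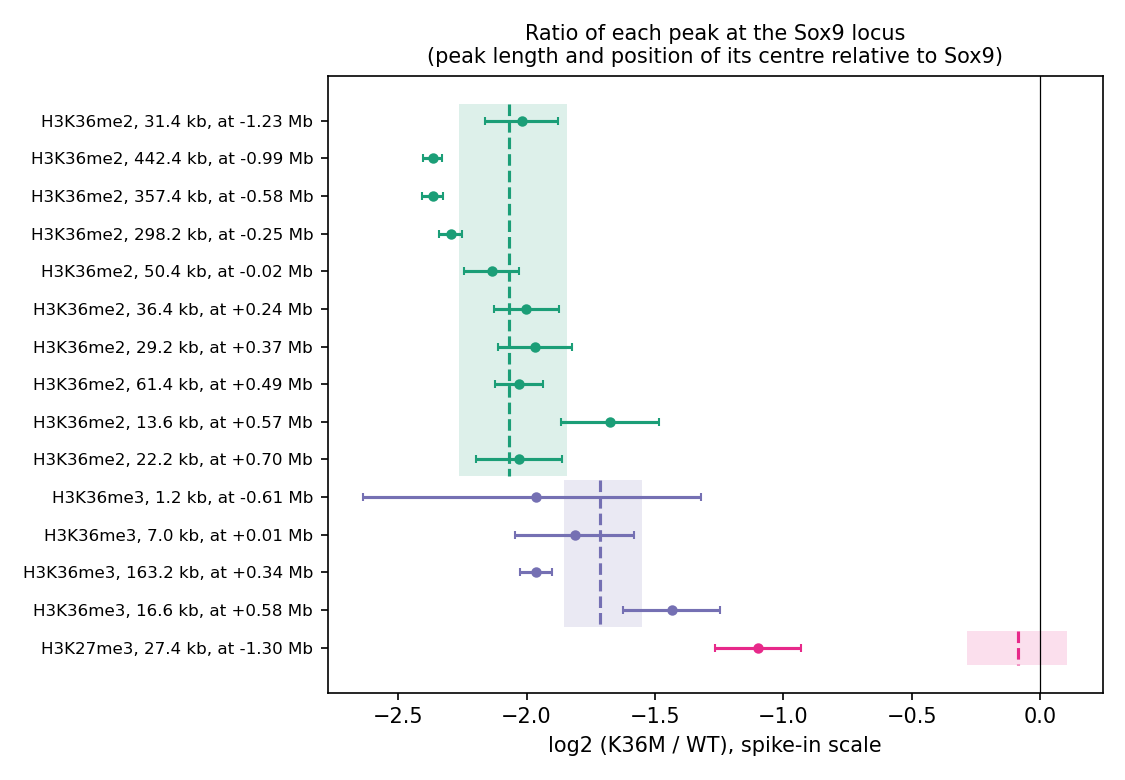
The log2 ratio of K36M to WT (x axis, spike-in scale) of each of the 15 peaks, with its 95% counting interval. Rows are peaks, named by mark, length and position of the centre relative to Sox9. Dashed lines are the median and shaded bands the quartiles of all other peaks of the mark. The points of the 3 long H3K36me2 domains, of the 163.2 kb and 1.2 kb H3K36me3 peaks and of the H3K27me3 peak lie below their bands. Those of the 13.6 kb H3K36me2 peak and the 16.6 kb H3K36me3 peak lie above theirs. The interval of the 1.2 kb peak spans its whole band.

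H3K36me3 at the locus was lower in K36M in all 4 peaks. At the position given for Sox9, to its precision of 0.01 Mb, a 7.0 kb peak was listed at chr11:112643800-112650799. WT cells had 181 normalized reads there and K36M cells 51.5, 3.51-fold lower (2.99 to 4.12). Its WT density of 25.8 per kb was above 89.5% of all H3K36me3 peaks, and its K36M density of 7.35 per kb was above 78.3%. A gap of 2.8 kb separated it from the H3K36me2 peak on the desert side. The log2 ratio was −1.81, which is 0.10 below the median of the other H3K36me3 peaks, and that median lay inside the peak's counting interval. The amount of Sox9 RNA was not measured in these libraries.

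The largest H3K36me3 domain of the window lay beyond Sox9. This domain, chr11:112898200-113061399, was 163.2 kb long, rank 97 by length among the 4999 peaks. Its signal was 2596 (WT) and 666 (K36M) normalized reads, 3.90-fold lower (3.74 to 4.07), and its density was 15.9 per kb in WT and 4.08 in K36M. Only 12.5% of all H3K36me3 peaks had a lower ratio. One H3K36me2 peak of 29.2 kb lay wholly inside this domain, and another ended 3.4 kb before it.

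The other 2 H3K36me3 peaks were small. One, chr11:113207000-113223599, was 16.6 kb long with 228 (WT) and 84.3 (K36M) normalized reads. It was 2.70-fold lower (2.37 to 3.08), and 86.1% of all H3K36me3 peaks had a lower ratio. It shared 66.3% of its length with the H3K36me2 peak of the smallest loss, so the peaks with the smallest loss of either mark in the window overlapped. The other was the 1.2 kb peak inside the desert block, chr11:112025400-112026599. With 66 reads in WT and 30 in K36M, its 3.90-fold difference was known only to between 2.50-fold and 6.22-fold. The difference of these 4 peaks from the mark's other peaks was small: their median log2 ratio was −1.89, against −1.71. All 4 were at least 2-fold lower, as were 98.5% of all H3K36me3 peaks, and 3 of the 4 were below the median of the others. The median of the 404 other H3K36me3 peaks of chromosome 11 was −1.82.

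H3K27me3 was listed in a single peak of the window, and its loss was among the largest of that mark. The peak, chr11:111323000-111350399, was 27.4 kb long and lay 41.2 kb beyond the far edge of the H3K36me2 block, about 1290 kb from Sox9. WT cells had 219 normalized reads there and K36M cells 102, from 1215 and 393 reads, a 2.14-fold difference (1.91 to 2.40). The log2 ratio was −1.10, and the median of the other 998 H3K27me3 peaks was −0.08, with quartiles of −0.28 and 0.11. It ranked 12 from the lowest ratio among 999 peaks. A loss of 2-fold or more was seen in 1.70% of all H3K27me3 peaks, and one of 1.5-fold or more in 8.11%.

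By density, this H3K27me3 peak was in the lower part of the table in WT and near its bottom in K36M. Its WT density of 7.98 per kb was rank 760 of 999, and its K36M density of 3.73 per kb was rank 995. Its summed WT signal equalled the median of the table, 219 normalized reads. The nearest listed H3K27me3 peaks on either side lay 1385 kb before and 1408 kb after the window, and both were higher in K36M. The first had 68.9 (WT) and 81.4 (K36M) normalized reads, a log2 ratio of 0.24. The second had 135 and 154, a log2 ratio of 0.19. The median of the 94 other H3K27me3 peaks of chromosome 11 was −0.14. The tables hold no values between listed peaks, so nothing can be said of H3K27me3 inside the desert block or over Sox9 below the level of a listed peak.

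Just outside the window, the nearest H3K36me2 peaks were 647 kb before and 1753 kb after, both 9.2 kb long, and were 4.12-fold and 2.25-fold lower. The next H3K36me3 peak began 10.2 kb after the window. It was 48.8 kb long and 3.14-fold lower, with 1125 (WT) and 358 (K36M) normalized reads. On the desert side no H3K36me3 peak was listed for 681 kb before the window.

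The size of every difference depends on the spike-in scaling. If the WT and K36M columns of a mark were instead set to equal totals, the 3 H3K36me2 domains would be at 0.780, 0.780 and 0.818 of their WT values and the H3K36me3 peak at Sox9 at 0.937. The H3K27me3 peak would be at 0.490. Differences from the mark's median are the same on both scales, because the factor is common to all peaks of a library.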

How the data were processed

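The authors deposited 1 signal value per listed peak and library, reads normalized with the spike-in chromatin, per the file headers. The submitters' processing notes name Bowtie 1.0.0, mm9 for mouse and dm6 for Drosophila. The peak caller, the libraries it was run on and the scaling formula were not given in the sources used here. Starts are multiples of 200, as in windows counted from 0, and are printed as deposited.

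Each column was a set of multiples of 1 step (H3K36me2 1.08 and 0.52, H3K36me3 0.39 and 0.22, H3K27me3 0.18 and 0.26, WT first). The step was taken as the factor of its library, and values were divided by it to give reads. Ratios used no pseudocount. Densities are normalized reads per kb of peak. Every peak overlapping the window is described. The members and lists were chosen with earlier results of these data known. With 1 library per group there is no test, and calls are fold thresholds. The calculations were tested on simulated counts. Alternatives are given in the closing section. Python 3.11.15, numpy 2.4.6, pandas 2.3.3, scipy 1.17.1 and matplotlib 3.10.9 were used.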

Additional observations from a re-analysis of the deposited data

How the results depend on the processing

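The closeness of the H3K36me2 peaks to the mark's median depended on the setting. The median of the window minus that of the other peaks was 0.04 on the log2 scale. It was −0.19 against the rest of chromosome 11 and −0.18 with a pseudocount at the 5th percentile, which by construction draws small peaks toward no change. For H3K36me3 the same pseudocount turned −0.17 into 0.37, as 3 of its 4 peaks are small, and moved the median log2 ratio from −1.89 to −1.08. It moved the H3K27me3 log2 ratio to −0.86 and its deviation from −1.01 to −0.79. With equal totals the median log2 ratio became −0.022 for H3K36me2 and −0.17 for H3K36me3, by construction. The ratio of summed H3K36me2 signal was −2.29 on the log2 scale, against a median of −2.03. At a 5-fold threshold 2 H3K36me2 peaks were called, against 8 at 4-fold. The other 28 of 38 values stayed within the counting interval of the median peak, within 1.5 times a count or within 10% of the span. The comparison with other peaks of 100 kb or more was added after the data were seen. For the single H3K27me3 peak, 3 alternatives left no peak to compare, and the reference of equal length held 2 peaks. With 1 library per group, none could be left out and no error between cultures is known.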

Other observations

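The H3K27me3 peaks listed beside the largest H3K36me2 blocks were low in K36M. Within 100 kb of the 8 H3K36me2 clusters with the highest WT signal, the table listed 2 H3K27me3 peaks. One is the peak beyond the desert block of Sox9. The other, on chromosome 15 from 53813600 to 53859799, lies 29.0 kb from the cluster of rank 4. Its values were 356 (WT) and 146 (K36M) normalized reads, 2.44-fold lower, rank 7 from the lowest ratio. This look was chosen after the values were seen, and with 2 peaks it is a description. How many H3K27me3 peaks lie in stretches of that length elsewhere was not counted. Of the 17 H3K27me3 peaks at least 2-fold lower in K36M, others lay as far as 4397 kb from any listed H3K36me2 peak.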
